A study of Homo sapiens with 12 samples.

Results

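The nuclear-encoded subunits of the mitochondrial respiratory chain were compared between fast cells, captured from the human breast cancer line MDA-MB-231, and the parental population. MDA-MB-231 is an established line of the triple-negative kind, which lacks the hormone receptors and HER2 amplification. Members were chosen by symbol: rows beginning with NDUF, UQCR, COX4 to COX8, SDHA, SDHB, SDHC, SDHD or ATP5, plus CYC1, without pseudogenes, antisense genes or SDHAF assembly factors. Of the 60234 rows of the count table, 248 matched, and 144 pseudogenes, 2 antisense genes and 2 SDHAF genes were left out, which gave 100 members. Of these, 85 were subunits or their isoforms (37 in complex I, 4 in complex II, 9 in complex III, 19 in complex IV and 16 in complex V), 7 were complex I assembly factors (NDUFAF1 to NDUFAF7), 2 were other genes with the prefix (ATP5S and ATP5SL) and 6 were rows that overlap another member. NDUFA4 and its paralog NDUFA4L2 were counted with complex IV, because NDUFA4 is a cytochrome c oxidase subunit despite its name.

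Complexes I to IV pass electrons from NADH and succinate through coenzyme Q and cytochrome c to oxygen; complexes I, III and IV pump protons, and complex V, the ATP synthase, uses the resulting gradient to make ATP. Complex II is encoded wholly in the nucleus, whereas the other complexes combine nuclear subunits with a few made from mitochondrial DNA. Each complex needs its subunits in fixed proportions, and subunits left without partners are generally degraded, so transcript levels are not a measure of assembled enzyme.

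Per the labels, the fast cells were captured on the basis of their trajectories, and the parental cells carry no treatment label; RNA came from cultured cells of both populations. The series describes 2 batches of 3 technical replicates for 2 biological replicates, and each population had 3 libraries in each batch, 12 in all. Nothing says that libraries of a population came from separate cultures or captures, so each p-value reflects library-to-library spread alone, and that spread may be technical. Libraries held 53267145 to 75944907 counts. The line's own markers VIM, CD44 and EGFR were abundant in both populations (573 CPM or more in the fast mean and 534 CPM or more in the parental mean), and CDH1 had at most 4 counts in a library. Of the receptors, ESR1 had at most 18 counts in a library, and ERBB2 had 56.3 to 62.0 CPM in fast libraries and 58.4 to 66.2 CPM in parental libraries. PGR was low in both and higher in fast cells, at 1.38 to 2.58 CPM in fast libraries and 0.276 to 0.667 CPM in parental libraries (log2 fold change 2.12, edgeR adjusted p = 6.20e-14). The 4 leukocyte markers summed to 0.416 to 0.733 CPM in fast libraries and 0.236 to 0.702 CPM in parental libraries, with PTPRC at no more than 4 counts. The 5 fibroblast markers summed to 9.13 to 11.8 CPM in fast libraries and 14.1 to 16.4 CPM in parental libraries, mostly COL1A1, with LUM at 0. The 4 endothelial markers summed to 9.33 to 12.1 CPM in fast libraries and 7.999 to 10.5 CPM in parental libraries, mostly KDR, with CDH5 at no more than 8 counts. The 4 striated muscle markers summed to 56.2 to 66.4 CPM in fast libraries and 38.3 to 47.6 CPM in parental libraries, mostly TNNT1, with MYH7 at no more than 2 counts and CKM at no more than 7. The part of these genes in the results was not tested, and a change in the share of cells cannot be told apart from a change of RNA per cell.

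Members moved in both directions within every complex. Of the 96 members that passed the low-count filter, 37 were higher and 34 lower in fast cells at an edgeR adjusted p under 0.05, and 25 were not called; 31.9% of all 22668 genes tested were called higher and 31.5% lower. COX4I2, COX6A2, COX7B2 and COX8C did not pass the filter. Of the 81 subunits tested, 31 were higher (38.3%), 29 lower (35.8%) and 21 not called. Among genes at a mean of at least 10 CPM, a level that 77 of the 81 reached, 45.2% were called higher and 36% lower, so the count of subunits called lay near the background in both directions. The changes were small. The median absolute log2 fold change was 0.18 over the 77 subunits, against 0.256 over all genes at that level, and 0 of 96 members changed by 2-fold or more, where 11.3% of all genes tested and 3.56% of those at a mean of at least 10 CPM did. All 6 fast libraries stood above all 6 parental libraries for 18 of the 81 subunits (18.8% of all genes tested) and below them for 14 (19.6% of all genes tested).

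The changes were also compared between batches. All 71 called members had the same sign in batch 1 and batch 2, and 57 were called by the tests of each batch's own effect. The 71 calls came from a fit to both batches together, which favours members with the same sign in each. The matching shares over all called genes were not taken, so neither count is read as a result about the members. In edgeR's test of the difference between the batch effects 0 of 96 members passed, against 5.4% of all genes tested; at an unadjusted p under 0.05 there were 3 (NDUFB9, NDUFAF1 and NDUFAF4), and limma-voom and DESeq2 also called 0. Across the 77 subunits the batch 1 and batch 2 log2 fold changes correlated with a Pearson r of 0.98, as a description over genes from libraries of the same 2 populations.

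**Figure D1:**
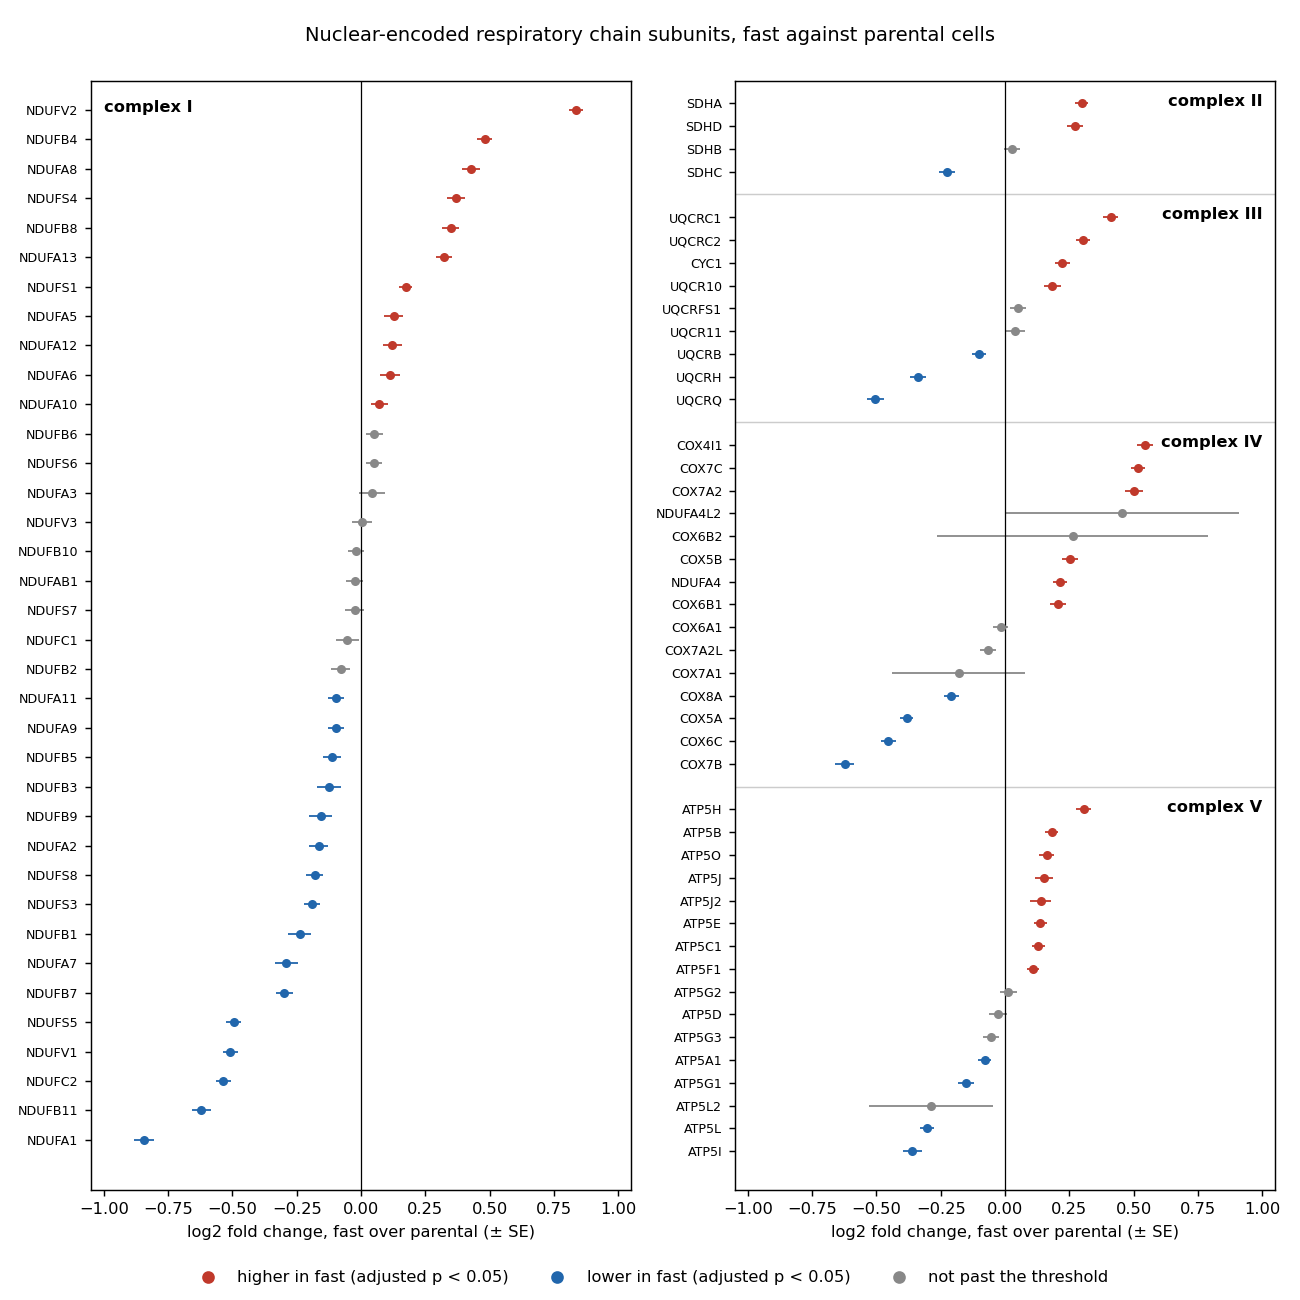
Log2 fold change, fast over parental, of 80 of the 81 subunits tested, with its standard error, complex I on the left and complexes II to V on the right. Red points were higher and blue points lower in fast cells at an edgeR adjusted p under 0.05, grey points were not called; each complex holds all 3 kinds, and the wide bars belong to isoforms under 1 CPM.

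Complex I, the NADH dehydrogenase, had the lowest median of the 5 complexes. Of its 37 nuclear subunits, 11 were higher, 17 lower and 9 not called, with a median log2 fold change of -0.054, against 0.005 over all genes tested. Genes at a mean of at least 10 CPM had a median of 0.047, with 45.2% called higher and 36% lower. These shares are the background for the counts of each complex and list below. The lead member of complex I was NDUFV2, an iron-sulfur subunit of the NADH-oxidising module. Levels are given here as the lowest, the median and the highest of 6 libraries. Ranges and their overlap are taken over both batches together unless a batch is named. NDUFV2 had 158, 169.8 and 174 CPM in fast libraries, against 90.3, 93.3 and 98.5 CPM in parental libraries (log2 fold change 0.84 ± 0.027 SE, edgeR adjusted p = 7.97e-24). The populations were far apart, with every fast library well above every parental one. Its direct partner NDUFV1, which carries the flavin that accepts electrons from NADH, went the other way. NDUFV1 had 70.3, 73.9 and 82.3 CPM in fast libraries, against 103, 106 and 113 CPM in parental libraries (log2 fold change -0.51 ± 0.03 SE, edgeR adjusted p = 8.10e-17). No library of either population crossed into the range of the other. The ratio of NDUFV2 to NDUFV1 was 2.08 to 2.35 in fast libraries, against 0.849 to 0.905 in parental libraries.

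The largest fall in complex I was that of NDUFA1, an X-linked accessory subunit of the membrane arm. NDUFA1 had 27.7, 30.9 and 32.4 CPM in fast libraries, against 48.8, 53.5 and 62.3 CPM in parental libraries (log2 fold change -0.84 ± 0.037 SE, edgeR adjusted p = 4.45e-20). NDUFB11, the other X-linked subunit of complex I, had 37.5, 43.1 and 48.1 CPM in fast libraries, against 57.5, 68.4 and 73.7 CPM in parental libraries (log2 fold change -0.62 ± 0.037 SE, edgeR adjusted p = 1.66e-16). Fast libraries lay below parental libraries for both genes, without overlap. NDUFC2, an accessory subunit of the membrane arm encoded on chromosome 11, had 57.3, 61.7 and 64.8 CPM in fast libraries, against 80.4, 87.8 and 97.9 CPM in parental libraries (log2 fold change -0.54 ± 0.029 SE, edgeR adjusted p = 1.44e-17), again without overlap; its row overlaps the readthrough NDUFC2-KCTD14, and their reads cannot be told apart.

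The core subunits of complex I are those that carry the redox centres or have bacterial counterparts. NDUFS1, the largest iron-sulfur subunit, had 125, 136 and 141 CPM in fast libraries, against 113, 118 and 129 CPM in parental libraries (log2 fold change 0.17 ± 0.026 SE, edgeR adjusted p = 5.35e-07). The NDUFS1 ranges of the populations overlapped over both batches together but not within each batch. NDUFS3 had 57.6, 62.0 and 65.7 CPM in fast libraries, against 64.2, 70.8 and 74.9 CPM in parental libraries (log2 fold change -0.19 ± 0.03 SE, edgeR adjusted p = 1.24e-06). NDUFS8, which holds a pair of iron-sulfur clusters, had 50.8, 54.8 and 59.6 CPM in fast libraries, against 54.4, 64.0 and 68.7 CPM in parental libraries (log2 fold change -0.18 ± 0.033 SE, edgeR adjusted p = 1.22e-05). Both were lower in fast cells, with ranges that overlapped over both batches together. Within each batch neither gene's ranges overlapped. NDUFS7, which holds the last iron-sulfur cluster before the quinone, had 31.5 to 37.7 CPM in fast libraries and 31.2 to 37.1 CPM in parental libraries (log2 fold change -0.025 ± 0.038 SE, edgeR adjusted p = 0.596); the ranges overlapped almost entirely. Among the 30 accessory subunits 9 were higher, 13 lower and 8 not called.

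The complex I assembly factors, which build the enzyme without being part of it, comprised 2 called higher, 3 lower and 2 not called. NDUFAF3 had 19.8, 20.6 and 23.1 CPM in fast libraries, against 28.1, 30.9 and 34.1 CPM in parental libraries (log2 fold change -0.57 ± 0.04 SE, edgeR adjusted p = 1.81e-14). NDUFAF6 had 20.4, 22.1 and 24.4 CPM in fast libraries, against 27.7, 28.5 and 31.4 CPM in parental libraries (log2 fold change -0.39 ± 0.041 SE, edgeR adjusted p = 1.75e-10). In both genes each fast library was below each parental one.

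**Figure D2:**
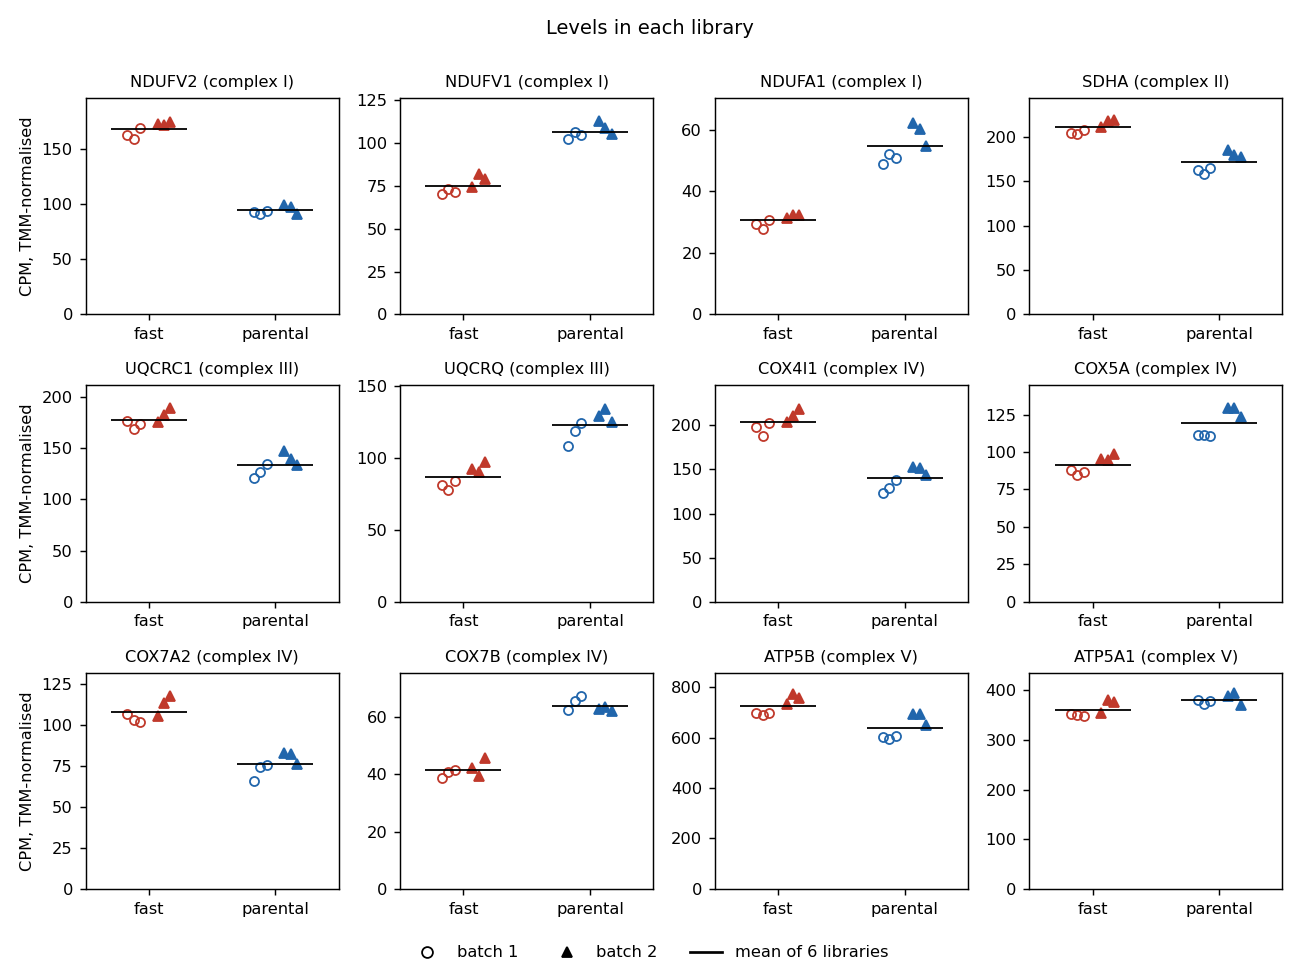
TMM-normalised CPM of 12 subunits in each library, fast on the left and parental on the right of each panel, with open circles for batch 1, triangles for batch 2 and a line at the mean of 6 libraries; all axes start at 0. NDUFV2 and NDUFV1, and COX4I1 and COX5A, moved in opposite directions, while the ATP5A1 ranges of the populations overlap.

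Complex II, succinate dehydrogenase, feeds electrons from the citric acid cycle into coenzyme Q. Of its 4 subunits, SDHA and SDHD were higher, SDHC was lower and SDHB was not called. SDHA, the flavoprotein that oxidises succinate, had 204, 209.8 and 219 CPM in fast libraries, against 158, 172 and 186 CPM in parental libraries (log2 fold change 0.30 ± 0.025 SE, edgeR adjusted p = 1.84e-12). SDHD, a membrane anchor, had 101, 104 and 112 CPM in fast libraries, against 84.3, 86.3 and 91.2 CPM in parental libraries (log2 fold change 0.27 ± 0.03 SE, edgeR adjusted p = 7.60e-10). Both were higher in all 6 fast libraries than in any parental library. The other membrane anchor, SDHC, had 58.9, 63.6 and 64.7 CPM in fast libraries, against 68.6, 73.6 and 75.7 CPM in parental libraries (log2 fold change -0.23 ± 0.031 SE, edgeR adjusted p = 6.21e-08), with all fast libraries below all parental ones. SDHB, the iron-sulfur subunit, had 61.4, 67.4 and 75.8 CPM in fast libraries, against 62.5, 66.7 and 70.7 CPM in parental libraries (log2 fold change 0.027 ± 0.032 SE, edgeR adjusted p = 0.484), and its ranges overlapped. The ratio of the 2 anchors, SDHD to SDHC, was 1.62 to 1.73 in fast libraries, against 1.14 to 1.27 in parental libraries. SDHA to SDHB gave 2.89 to 3.32 in fast libraries, against 2.49 to 2.70 in parental libraries. Reads of SDHA can also match its pseudogenes; SDHAP1, the highest of these rows, averaged 11.8 CPM over all libraries.

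Complex III, the cytochrome bc1 complex, passes electrons from coenzyme Q to cytochrome c. Of its 9 nuclear subunits 4 were higher, 3 lower and 2 not called. The median log2 fold change was 0.049, near the 0.047 of all genes at a mean of at least 10 CPM. UQCRC1, a core scaffold subunit on the matrix side, had 169, 176 and 189 CPM in fast libraries, against 121, 134 and 147 CPM in parental libraries (log2 fold change 0.41 ± 0.03 SE, edgeR adjusted p = 3.05e-14). UQCRC2, the other core scaffold subunit, had 93.3, 95.2 and 98.1 CPM in fast libraries, against 73.1, 78.1 and 80.2 CPM in parental libraries (log2 fold change 0.30 ± 0.027 SE, edgeR adjusted p = 6.43e-12). Both core subunits were higher in every fast library than in any parental library. The ratio of UQCRC1 to UQCRC2 was 1.77 to 2.03 in fast libraries, against 1.55 to 1.88 in parental libraries, ranges that overlapped. UQCRQ, a small subunit of the membrane part, had 77.4, 86.9 and 97.3 CPM in fast libraries, against 108, 125 and 134 CPM in parental libraries (log2 fold change -0.50 ± 0.032 SE, edgeR adjusted p = 1.89e-15). UQCRH, the hinge protein beside cytochrome c1, had 90.1, 98.6 and 112 CPM in fast libraries, against 108, 124 and 145 CPM in parental libraries (log2 fold change -0.34 ± 0.033 SE, edgeR adjusted p = 7.46e-11). UQCRQ was lower without overlap. UQCRH was lower with a small overlap over both batches together and none within each batch. CYC1, cytochrome c1 itself, had 273, 286 and 314 CPM in fast libraries, against 222, 251 and 276 CPM in parental libraries (log2 fold change 0.22 ± 0.029 SE, edgeR adjusted p = 4.33e-08). The iron-sulfur subunit UQCRFS1 had 103, 108 and 121 CPM in fast libraries, against 97.7, 104 and 119 CPM in parental libraries (log2 fold change 0.049 ± 0.03 SE, edgeR adjusted p = 0.161). CYC1 was higher, with ranges that overlapped over both batches together but not within each batch. UQCRFS1 did not pass the threshold. Without parental batch 2 replicate 1 it was called higher (log2 fold change 0.075, edgeR adjusted p = 0.037), and relative to neighbouring genes it was called lower (-0.086, edgeR adjusted p = 0.0164). Its pseudogene row, UQCRFS1P1, averaged 8.19 CPM.

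The start regions of 4 of these genes are shown with matches to known regulator motifs marked. Whether the motifs bear on direction was not tested. SDHA, SDHD and UQCRC1 were higher in fast cells, beside median log2 fold changes of their chromosomal neighbours of 0.029 (over 22 genes), -0.12 and -0.41, and UQCRQ was the most strongly lower subunit of complex III; the 4 were picked after their values were seen. Each sequence is the RefSeq window from 250 bases before to 50 bases after the gene's start in GRCh38.p14, read 5′ to 3′ on the gene's strand. Capitals mark matches, on either strand, to GCGCANGCG for NRF1, AAGATGGCG for YY1, CCGGAAGT for ETS factors such as GABPA, and TCAAGGTCA for ERR factors such as ESRRA. The windows lie at chr5:218070-218369 on the plus strand for SDHA, chr11:112086623-112086922 on the plus strand for SDHD, chr3:48609597-48609896 on the minus strand for UQCRC1 and chr5:132866392-132866691 on the plus strand for UQCRQ.
SDHA: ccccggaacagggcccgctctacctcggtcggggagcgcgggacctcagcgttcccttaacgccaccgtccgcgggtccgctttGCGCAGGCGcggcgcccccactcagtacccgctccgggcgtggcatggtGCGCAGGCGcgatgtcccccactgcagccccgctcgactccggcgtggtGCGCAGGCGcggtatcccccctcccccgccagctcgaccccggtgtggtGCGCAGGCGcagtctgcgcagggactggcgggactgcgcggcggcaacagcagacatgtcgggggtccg
SDHD: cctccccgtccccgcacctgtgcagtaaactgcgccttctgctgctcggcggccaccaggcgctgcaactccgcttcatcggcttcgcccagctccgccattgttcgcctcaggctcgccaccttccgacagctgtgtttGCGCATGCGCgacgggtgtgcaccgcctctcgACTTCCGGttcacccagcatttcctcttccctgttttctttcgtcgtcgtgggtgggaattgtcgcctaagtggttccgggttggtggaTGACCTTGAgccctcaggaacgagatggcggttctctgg
UQCRC1: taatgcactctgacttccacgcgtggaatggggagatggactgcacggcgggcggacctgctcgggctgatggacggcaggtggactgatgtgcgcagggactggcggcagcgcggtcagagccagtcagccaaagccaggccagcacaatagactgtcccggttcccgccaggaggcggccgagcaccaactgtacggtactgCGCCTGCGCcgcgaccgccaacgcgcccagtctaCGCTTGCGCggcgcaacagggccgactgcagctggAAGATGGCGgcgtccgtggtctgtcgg
UQCRQ: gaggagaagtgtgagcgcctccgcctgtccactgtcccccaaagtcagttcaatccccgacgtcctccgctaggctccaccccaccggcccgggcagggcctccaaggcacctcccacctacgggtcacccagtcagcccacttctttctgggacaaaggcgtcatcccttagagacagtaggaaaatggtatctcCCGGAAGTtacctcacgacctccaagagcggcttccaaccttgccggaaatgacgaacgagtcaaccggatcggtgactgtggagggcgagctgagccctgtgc
In the SDHA window the NRF1 letters occur 4 times, first at position -166 and last at -19, counted from 0 at the first base after the upstream 250, and no other motif searched was found. The SDHD window holds an NRF1 match at -110, where the letters occur on both strands and overlap, an ETS match at -78 and an ERR match at 11, both ETS and ERR on the reverse strand. UQCRC1 has NRF1 matches at -46 and -12, both on the reverse strand, and a YY1 match at 23, and UQCRQ has an ETS match at -54. No match printed here overlaps that of another motif.

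A RefSeq window was matched for 67 of the 85 subunits, and 63 of these belonged to genes at a mean of at least 1 CPM. The NRF1 letters stood in 21 of the 63 windows (33.3%), against 11% of 15843 protein-coding windows of the same length. YY1 letters stood in 8 (12.7%, against 2.74%), ETS letters in 9 (14.3%, against 6.19%) and ERR letters in 1 (1.59%, against 0.24%). The protein-coding windows were taken whatever the level of their gene. The sets are thus not matched for level, and the differences in share were not tested. Among subunits called higher, 10 of 27 windows held the NRF1 letters, and among those called lower 3 of 21 did; the difference was not tested. A match describes these letters only and is not a binding site shown to be used.

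Complex IV, cytochrome c oxidase, reduces oxygen. Of its 19 genes 15 were tested, with 6 higher, 4 lower and 5 not called. The 12 genes at a mean of at least 10 CPM had a median log2 fold change of 0.09; with the 3 tested isoforms under 1 CPM added it was 0.21, and it was -0.017 with NDUFA4 and NDUFA4L2 counted in complex I, so no direction is given for the complex. COX4I1, the common form of subunit 4, had 188, 203 and 219 CPM in fast libraries, against 124, 141 and 153 CPM in parental libraries (log2 fold change 0.54 ± 0.03 SE, edgeR adjusted p = 2.86e-17). COX5A, its binding partner early in assembly, had 84.3, 91.5 and 98.5 CPM in fast libraries, against 110.4, 117 and 129 CPM in parental libraries (log2 fold change -0.38 ± 0.026 SE, edgeR adjusted p = 7.58e-15). Neither gene's ranges overlapped, and the directions were opposite. The ratio of COX4I1 to COX5A was 2.14 to 2.34 in fast libraries, against 1.11 to 1.25 in parental libraries.

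The small subunits of complex IV also split. COX7C had 133, 145 and 165 CPM in fast libraries, against 92.4, 102 and 113 CPM in parental libraries (log2 fold change 0.52 ± 0.027 SE, edgeR adjusted p = 5.82e-18). COX7A2, the common form of subunit 7A, had 102, 106 and 118 CPM in fast libraries, against 65.6, 75.9 and 82.9 CPM in parental libraries (log2 fold change 0.50 ± 0.035 SE, edgeR adjusted p = 2.38e-14). Fast libraries were above parental ones for both, without overlap. The X-linked COX7B had 38.9, 41.2 and 45.9 CPM in fast libraries, against 61.9, 63.0 and 67.2 CPM in parental libraries (log2 fold change -0.62 ± 0.037 SE, edgeR adjusted p = 1.10e-16), with all fast libraries below all parental libraries. The ratio of COX7C to COX7B was 3.21 to 3.97 in fast libraries, against 1.43 to 1.79 in parental libraries. COX6B1, the subunit 6B form of most tissues, had 98.1, 111 and 125 CPM in fast libraries, against 85.2, 95.5 and 104 CPM in parental libraries (log2 fold change 0.21 ± 0.03 SE, edgeR adjusted p = 2.16e-07). NDUFA4 had 91.0, 95.8 and 103 CPM in fast libraries, against 79.4, 81.5 and 87.5 CPM in parental libraries (log2 fold change 0.21 ± 0.027 SE, edgeR adjusted p = 1.90e-08). COX8A, the ubiquitous form of subunit 8, had 91.2, 99.4 and 117 CPM in fast libraries, against 102, 118 and 133 CPM in parental libraries (log2 fold change -0.21 ± 0.03 SE, edgeR adjusted p = 1.73e-07). NDUFA4 was higher without overlap. The COX6B1 and COX8A ranges overlapped over both batches together but not within each batch. COX6A1, the non-muscle form of subunit 6A, had 132 to 161 CPM in fast libraries and 137 to 156 CPM in parental libraries (log2 fold change -0.017 ± 0.028 SE, edgeR adjusted p = 0.627). COX7A2L, a relative of subunit 7A that takes part in supercomplex formation, had 78.9 to 89.3 CPM in fast libraries and 84.9 to 90.1 CPM in parental libraries (log2 fold change -0.068 ± 0.031 SE, edgeR adjusted p = 0.0543). COX7A2L missed the threshold here and passed it as lower with DESeq2 (adjusted p = 0.042), with DESeq2's size factors in edgeR (adjusted p = 0.0324), when genes under 1 CPM were filtered out (edgeR adjusted p = 0.00911) and relative to neighbouring genes (edgeR adjusted p = 8.31e-09). It also passed without fast batch 2 replicate 3 (edgeR adjusted p = 0.0101) and without parental batch 2 replicate 3 (edgeR adjusted p = 0.0346).

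The alternative isoforms of complex IV, which serve muscle, testis, lung or oxygen-starved cells in other settings, were at or near 0 in both populations. COX6A2, a heart and skeletal muscle form, and COX7B2 had 0 counts in all 12 libraries, which allows up to 0.0579 CPM (3 counts, TMM-normalised) in the shallowest library. COX4I2, a lung form also raised by low oxygen, had 2 counts over the fast libraries and 1 over the parental libraries. COX8C, a testis form, had 2 counts in each population. COX7A1, the muscle form of subunit 7A, had 0.289 to 0.552 CPM in fast libraries and 0.295 to 0.579 CPM in parental libraries (log2 fold change -0.18 ± 0.26 SE, edgeR adjusted p = 0.567). COX6B2, a testis form, had 0.0266 to 0.343 CPM in fast libraries and 0 to 0.217 CPM in parental libraries, and NDUFA4L2, a hypoxia-responsive paralog of NDUFA4, had 0.0266 to 0.215 CPM in fast libraries and 0.0776 to 0.155 CPM in parental libraries. None of these 3 was called (edgeR adjusted p = 0.567, 0.688 and 0.393), and a difference was not detectable at these counts.

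Complex V, the ATP synthase, had 8 subunits higher, 4 lower and 4 not called of 16. The median log2 fold change was 0.061 over all 16. Over the 15 at a mean of at least 10 CPM it was 0.11, against 0.047 for all genes at that level. This difference was not tested. ATP5B, the catalytic beta subunit, had 688, 716 and 771 CPM in fast libraries, against 595, 628 and 694 CPM in parental libraries (log2 fold change 0.18 ± 0.024 SE, edgeR adjusted p = 4.88e-08). ATP5A1, the alpha subunit that alternates with it in the catalytic head, had 348, 353 and 379.9 CPM in fast libraries, against 370.1, 379 and 394 CPM in parental libraries (log2 fold change -0.080 ± 0.025 SE, edgeR adjusted p = 0.00536). Both pairs of ranges overlapped over both batches together. Within each batch the ATP5B ranges did not overlap, while those of ATP5A1 overlapped in batch 2. The ATP5A1 call was lost when the 3 libraries of each population and batch were summed (edgeR adjusted p = 0.267). The ratio of ATP5B to ATP5A1 was nevertheless 1.96 to 2.07 in fast libraries, against 1.59 to 1.79 in parental libraries, without overlap. ATP5C1, the gamma subunit of the rotating stalk, had 173, 181 and 192 CPM in fast libraries, against 159, 164 and 176 CPM in parental libraries (log2 fold change 0.13 ± 0.026 SE, edgeR adjusted p = 4.34e-05), with overlapping ranges. ATP5H, a subunit of the peripheral stalk, had 86.2, 93.2 and 105 CPM in fast libraries, against 71.6, 76.6 and 80.9 CPM in parental libraries (log2 fold change 0.31 ± 0.029 SE, edgeR adjusted p = 3.14e-11). ATP5I and ATP5L, the small subunits e and g of the membrane part, were both lower. ATP5I had 26.8, 27.8 and 29.7 CPM in fast libraries, against 33.6, 36.0 and 37.9 CPM in parental libraries (log2 fold change -0.36 ± 0.037 SE, edgeR adjusted p = 1.23e-10). ATP5L had 126, 131 and 142 CPM in fast libraries, against 159, 162 and 170.2 CPM in parental libraries (log2 fold change -0.30 ± 0.028 SE, edgeR adjusted p = 9.10e-12). Ranges of ATP5H, ATP5I and ATP5L did not overlap between the populations.

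ATP5G1, ATP5G2 and ATP5G3 encode the same mature c subunit of the proton-driven ring. ATP5G1 had 76.7, 80.1 and 86.5 CPM in fast libraries, against 80.9, 90.6 and 95.5 CPM in parental libraries (log2 fold change -0.15 ± 0.031 SE, edgeR adjusted p = 6.65e-05). ATP5G2 had 91.9 to 111 CPM in fast libraries and 95.3 to 107 CPM in parental libraries (log2 fold change 0.013 ± 0.032 SE, edgeR adjusted p = 0.746). ATP5G3 had 123 to 144 CPM in fast libraries and 132 to 151 CPM in parental libraries (log2 fold change -0.057 ± 0.031 SE, edgeR adjusted p = 0.111). ATP5G1 was the 1 of the 3 called, and the ranges of all 3 overlapped. ATP5G3 was called lower when genes under 1 CPM were filtered out (edgeR adjusted p = 0.0168), without parental batch 2 replicate 3 (edgeR adjusted p = 0.0156) and relative to neighbouring genes (edgeR adjusted p = 7.72e-07).

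Levels could be set between genes only per length of the annotated principal transcript, given here as mean ± SD over 6 libraries. ATP5B was the highest subunit of all, at 394 ± 18.9 CPM per kilobase in fast cells and 348 ± 24.7 CPM per kilobase in parental cells. In complex II SDHA led at 88.3 ± 2.80 CPM per kilobase in fast cells and 71.9 ± 4.60 CPM per kilobase in parental cells. COX6A1 led complex IV at 252 ± 18.6 CPM per kilobase in fast cells and 255 ± 14.2 CPM per kilobase in parental cells; COX4I1, next in fast cells, was at 233 ± 12.0 CPM per kilobase in fast cells and 160.3 ± 13.7 CPM per kilobase in parental cells and stood behind COX8A in parental cells, where COX8A was at 234 ± 26.2 CPM per kilobase. The leading subunit differed between the populations in complexes I and III. In complex I NDUFV2 led in fast cells, at 180.4 ± 6.52 CPM per kilobase in fast cells and 101 ± 3.68 CPM per kilobase in parental cells, and NDUFS5 led in parental cells, at 147 ± 6.66 CPM per kilobase in fast cells and 207 ± 13.3 CPM per kilobase in parental cells. In complex III CYC1 led in fast cells, at 234 ± 12.7 CPM per kilobase in fast cells and 201 ± 17.9 CPM per kilobase in parental cells. UQCRH was at 165 ± 14.8 CPM per kilobase in fast cells and 209.6 ± 24.9 CPM per kilobase in parental cells, where it and CYC1 differed by less than their spread. Such values depend on the annotated length, which was not checked against the reads.

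Summed over its subunits, complex II was higher in fast cells without overlap. Its sum was 431, 443 and 472 CPM in fast libraries, against 380.0, 396 and 417 CPM in parental libraries. A sum weighs each gene by its counts, and this rise lay mostly in SDHA and SDHD. From parental to fast, mean CPM went from 172 to 211 for SDHA and from 86.9 to 105 for SDHD. For SDHB it went from 66.7 to 67.9, and for SDHC it fell from 73.0 to 62.4. The complex I sum was 2023, 2114 and 2265 CPM in fast libraries, against 2019, 2150.1 and 2256 CPM in parental libraries, a ratio of means of 0.991. Sums of complex IV were 1199, 1279 and 1421 CPM in fast libraries, against 1104, 1199.8 and 1298 CPM in parental libraries, a ratio of 1.07. Complexes III and V each had a ratio of 1.04. Over both batches together the sums of complexes I, III, IV and V overlapped between the populations, and for these 4 complexes batch 2 lay mostly above batch 1 in both populations. Within each batch the complex IV sums did not overlap, at 1199 to 1240 CPM in fast libraries and 1104 to 1172 CPM in parental libraries of batch 1, and at 1319 to 1421 CPM in fast libraries and 1228 to 1298 CPM in parental libraries of batch 2. The complex V sums did not overlap in batch 1 and overlapped in batch 2, and those of complexes I and III overlapped in both.

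**Figure D3:**
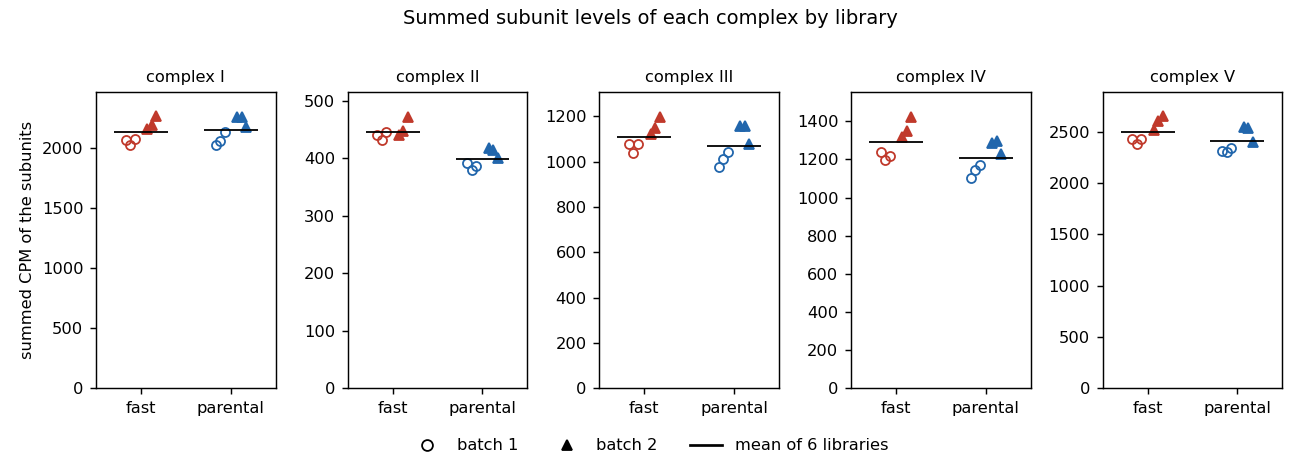
Summed TMM-normalised CPM of the nuclear-encoded subunits of each complex in each library, fast on the left and parental on the right, with open circles for batch 1, triangles for batch 2 and lines at the means; axes start at 0. Over both batches, in complex II alone of the 5 does the lowest fast library (431 CPM) lie above the highest parental library (417 CPM). That rise lies mostly in SDHA and SDHD, while SDHC was lower. Within each batch the complex IV sums are separate too.

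Most called subunits had the direction of the genes beside them on their chromosome. For each of the 77 subunits at a mean of at least 1 CPM, the median log2 fold change of up to 20 nearest tested genes on each side was taken, leaving members out; SDHA had 22 such genes in all, ATP5I 25 and ATP5J 34. The subunits' own values correlated with these medians with a Pearson r of 0.81 and a Spearman rho of 0.77, as a description over 77 genes that share the same libraries; over 15514 other genes the values were 0.37 and 0.56. Of the 60 called subunits 55 (91.7%) had the sign of their neighbours, against 79% of 11703 other called genes. All 77 subunits were at a mean of at least 10 CPM, whereas the other genes were taken from 1 CPM up. The sets are thus not matched for level, and the difference between subunits and other genes was not tested.

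Several of the largest changes lay close to those of their neighbours. NDUFV2, on chromosome 18, was at 0.84 on the log2 scale and its neighbours at a median of 0.80. ATP5A1, on the same chromosome, had -0.080 beside -0.52, so the neighbourhoods of these 2 genes differed in sign. COX4I1, on chromosome 16, was at 0.54 and its neighbours at 0.60. All 3 X-linked subunits were lower, and so were 82.8% of the 495 X-linked genes at a mean of at least 1 CPM, whose median log2 fold change was -0.59. NDUFA1, NDUFB11 and COX7B had -0.84, -0.62 and -0.62 beside neighbour medians of -0.64, -0.43 and -0.48. Relative to their neighbours the 3 were still called lower, at -0.21, -0.19 and -0.14 (edgeR adjusted p = 1.37e-05, 4.37e-05 and 0.00119). On chromosome 11, 6 of 7 subunits were lower, as were 64.7% of 880 genes there. On chromosome 10 both subunits were higher, as were 72% of 624 genes. Not every chromosome went this way. On chromosome 3, 2 of 3 subunits were higher, while 60.6% of 888 genes there were lower.

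The exceptions were few. UQCRC1, on chromosome 3, was at 0.41 while its neighbours had a median of -0.41. SDHD, on chromosome 11, was at 0.27 and its neighbours at -0.12, which made it the 1 subunit called higher of the 7 on that chromosome. NDUFA9, NDUFB3 and ATP5G1 were the other called subunits whose sign differed from that of their neighbours. These are the 5 named after their values were seen, and the list depended on the window. With 10 genes on each side 6 called subunits had the other sign, NDUFA10 and SDHA (neighbour medians -0.0054 and -0.081) in place of NDUFA9. With 40 genes on each side there were 7, the 5 and also NDUFB9 and COX5B. UQCRC1, SDHD, NDUFB3 and ATP5G1 were exceptions at all 3 windows. The calls of NDUFA9, NDUFB3 and NDUFA10 were themselves lost with summed libraries (edgeR adjusted p = 0.187, 0.116 and 0.215) and without a batch term.

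**Figure D4:**
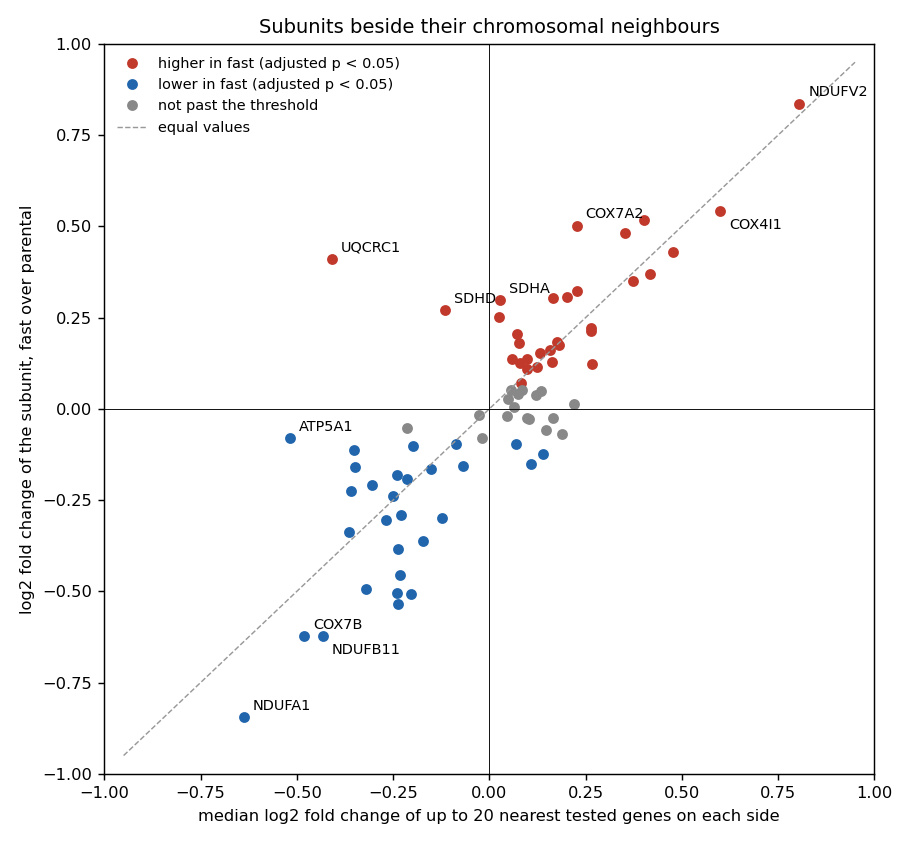
Log2 fold change, fast over parental, of 77 subunits against the median of up to 20 nearest tested genes on each side; red was called higher, blue lower and grey not called, and the dashed line marks equal values. NDUFV2 and COX4I1 lie near the line and the X-linked NDUFA1, NDUFB11 and COX7B somewhat below it, whereas UQCRC1, at 0.41 beside -0.41, stands well above it.

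When each gene's neighbour median was entered as an offset in the same fit, 21 members stood higher and 31 lower relative to their neighbours; 27.3% and 29.4% of 21540 genes were called so. Of the 71 called members 33 kept their call and sign, 30 lost the call, 8 were called in the opposite direction and 11 others gained a call. Complex II had 3 of 4 subunits higher relative to neighbours (SDHA 0.27, SDHD 0.39 and SDHC 0.13), and SDHC thereby changed its direction. UQCRC1 was at 0.82, ATP5A1 at 0.44 and COX7A2 at 0.28 above their neighbours, all called. The size for ATP5A1 depends on the window, as its neighbour median was -0.25 with 10 genes on each side and -0.45 with 40. NDUFV1 at -0.30, NDUFC2 at -0.30 and UQCRQ at -0.26 remained called below their neighbours. NDUFV2 (0.032, edgeR adjusted p = 0.33), COX4I1 (-0.055, adjusted p = 0.119) and ATP5L (-0.036, adjusted p = 0.275) were no longer called. The offset was entered as a known value, so p-values relative to neighbours leave out the error of the neighbour medians.

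The 13 subunits encoded in mitochondrial DNA, the partners of the nuclear ones in complexes I, III, IV and V, had 2 called higher, 0 lower and 11 not called, with a median log2 fold change of 0.12. When the 3 libraries of each population and batch were summed, 7 of the 13 were called, and relative to neighbouring genes 0 of the 13 were. Those neighbours are themselves genes of mitochondrial DNA. Centring on them removes any change that the 13 share, so the 0 cannot show whether they changed together. The 13 subunits summed to 18363 to 28451 CPM in fast libraries and 17971 to 24753 CPM in parental libraries, ranges that overlapped. MT-CO3, a core subunit of complex IV, had 1928, 2439 and 2913 CPM in fast libraries, against 1586, 1921 and 2129 CPM in parental libraries (log2 fold change 0.38 ± 0.088 SE, edgeR adjusted p = 0.00384). MT-ND3, a membrane subunit of complex I, had 455, 514 and 606 CPM in fast libraries, against 379, 441 and 457 CPM in parental libraries (log2 fold change 0.25 ± 0.051 SE, edgeR adjusted p = 7.87e-04). Over both batches together the ranges of both genes overlapped between the populations. Within each batch those of MT-ND3 did not, while those of MT-CO3 overlapped in batch 1. Neither gene was called relative to neighbouring genes (edgeR adjusted p = 0.0986 for MT-CO3 and 0.291 for MT-ND3). Among the 11 others, MT-CO1 had a log2 fold change of 0.12 ± 0.12 SE and MT-CYB one of 0.032 ± 0.10 SE.

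Cytochrome c and the genes of coenzyme Q synthesis and transport numbered 13, with 7 higher, 2 lower and 4 not called. COQ9, a lipid-binding protein of coenzyme Q synthesis, had 43.3, 46.0 and 48.3 CPM in fast libraries, against 24.1, 25.5 and 26.4 CPM in parental libraries (log2 fold change 0.85 ± 0.037 SE, edgeR adjusted p = 2.74e-20). COQ10B, a coenzyme Q-binding protein, had 28.3, 32.4 and 37.3 CPM in fast libraries, against 19.2, 21.6 and 23.2 CPM in parental libraries (log2 fold change 0.58 ± 0.043 SE, edgeR adjusted p = 5.28e-14). COQ2, the transferase that joins the ring to its tail, had 18.5, 21.2 and 21.9 CPM in fast libraries, against 26.9, 27.5 and 31.1 CPM in parental libraries (log2 fold change -0.45 ± 0.048 SE, edgeR adjusted p = 3.96e-10). COQ9 and COQ10B were higher and COQ2 lower in all fast libraries, without overlap. CYCS, cytochrome c itself, had 317 to 342 CPM in fast libraries and 299 to 319 CPM in parental libraries (log2 fold change 0.086 ± 0.025 SE, edgeR adjusted p = 0.00349). The CYCS call was lost with summed libraries (edgeR adjusted p = 0.112), and relative to neighbouring genes CYCS was called lower (-0.24, edgeR adjusted p = 4.19e-10).

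Of 40 assembly factors and related genes outside the symbol rule 12 were higher, 19 lower and 9 not called. ATPIF1, the inhibitor that stops complex V from hydrolysing ATP, had the largest change on the list. ATPIF1 had 46.9, 52.6 and 54.8 CPM in fast libraries, against 122, 133 and 145 CPM in parental libraries (log2 fold change -1.37 ± 0.029 SE, edgeR adjusted p = 5.99e-29), beside a neighbour median of -1.01. COA7 had 27.8, 28.9 and 29.9 CPM in fast libraries, against 43.0, 45.5 and 48.5 CPM in parental libraries (log2 fold change -0.66 ± 0.037 SE, edgeR adjusted p = 3.29e-17), and COA4 had 39.1, 40.1 and 41.5 CPM in fast libraries, against 57.5, 60.7 and 62.7 CPM in parental libraries (log2 fold change -0.58 ± 0.033 SE, edgeR adjusted p = 3.43e-17); both are cytochrome c oxidase assembly factors. All 3 were lower in fast cells without overlap. For ATPIF1 the value relative to its neighbours was -0.35 (edgeR adjusted p = 1.11e-12).

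Of 14 transcription regulators of mitochondrial genes 5 were higher, 6 lower and 3 not called, beside the same background shares of 45.2% and 36%. PPARGC1A, the coactivator PGC-1alpha, had 2.23, 2.72 and 3.01 CPM in fast libraries, against 0.944, 1.46 and 1.99 CPM in parental libraries (log2 fold change 0.88 ± 0.12 SE, edgeR adjusted p = 5.14e-08). PPARGC1B, its relative, had 9.58, 10.4 and 11.4 CPM in fast libraries, against 11.7, 13.8 and 16.4 CPM in parental libraries (log2 fold change -0.42 ± 0.058 SE, edgeR adjusted p = 7.95e-08). PPRC1, the third member of that family, had 157, 166 and 171 CPM in fast libraries, against 118, 128 and 145 CPM in parental libraries (log2 fold change 0.35 ± 0.031 SE, edgeR adjusted p = 5.50e-12). PPARGC1A and PPRC1 were higher and PPARGC1B lower, each without overlap, and PPARGC1A stayed low in level in both populations. NRF1, whose motif is marked above, had a log2 fold change of -0.20 ± 0.043 SE (edgeR adjusted p = 1.60e-04) and YY1 one of -0.27 ± 0.029 SE (edgeR adjusted p = 2.18e-10); GABPA, at 0.060 ± 0.037 SE, was not called. TFAM, which packages mitochondrial DNA and takes part in its transcription, was higher, with a log2 fold change of 0.34 ± 0.027 SE (edgeR adjusted p = 3.00e-13). Relative to neighbouring genes PPRC1 (0.022, edgeR adjusted p = 0.564), YY1 (0.038, adjusted p = 0.271) and TFAM (-0.022, adjusted p = 0.513) were no longer called, while PPARGC1A, PPARGC1B and NRF1 were called with the same sign; 7 of the 14 regulators were called on that scale.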

How the data were processed

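RNA-seq was run on 12 libraries, 3 of each population (fast, parental) in each of 2 batches. The values analysed are raw read counts for each gene, as the authors deposited them, with no normalization. Per the submitters' processing notes, the tools were Trimmomatic 0.32, STAR 2.3.0e and featureCounts 1.4.4, with builds hg19 and GRCh37. Strand use and the treatment of reads with several matches are not given in the sources used here. The table counts overlapping genes in separate rows, so reads of overlapping, antisense or near-identical genes, pseudogenes included, cannot be assigned with certainty.

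Counts were analysed with edgeR 4.0.16 in R 4.3.3: TMM, the default low-count filter (minimum count 10, minimum total 15, by population and batch), a robust quasi-likelihood fit with batch and population, and Benjamini-Hochberg adjustment over 22668 genes, with 0.05 as the threshold. A fit with 1 mean per population and batch tested the difference between batches. CPM are TMM-normalised, and a floor of 3 counts covers counting error only. Fold changes are fast over parental. Gene order and transcript lengths came from GENCODE 29 by gene ID, which matched 52339 of 60234 rows. Promoter windows came from RefSeq, GRCh38.p14, by gene ID or, where that gave no match, by symbol. The fit was tested on simulated data.

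Alternatives were other size factors, DESeq2 1.42.0, limma-voom 3.58.1, other filters, no batch term, a replicate block, summed libraries, leaving out each library and centring on neighbouring genes. Members, gene lists and named genes were chosen with earlier results of these data known. Named were the 4 called subunits with the largest change in complexes I, III, IV and V and the 2 such assembly factors, at a mean of at least 1 CPM; all of complex II; core subunits; genes with isoforms; X-linked subunits; and up to 3 called genes of each other list. Other named genes were picked after their values were seen. The values of 1 subunit and 1 leukocyte marker are not reported here.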

Additional observations from a re-analysis of the deposited data

Results flagged for a closer look

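In 2 of the 106 sets of 6 libraries examined, 1 library stood apart from the other 5 of its population by Dixon's criterion at the 95% level; chance alone would single out about 1 set in 20. MT-ND3 had 379.5 CPM in parental batch 1 replicate 3, the lowest of the parental libraries. COQ2 had 31.13 CPM in parental batch 1 replicate 2, the highest of the parental libraries.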

How the results depend on the processing

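Of the 71 called members, 71 kept their call and direction with limma-voom, 70 each with DESeq2, other size factors, no low-count filter and the replicate block, 69 when genes under a mean of 1 CPM were dropped, 62 without a batch term and 61 with summed libraries. Same-numbered libraries did not deviate together (correlations from -0.0763 to 0.074), so the numbers, which are those of the sample titles, were not taken to pair samples (in batch 1 the column names of the table carry other numbers for some libraries); the replicate block gave 36 members higher and 34 lower. Leaving out 1 library gave 36 to 38 members higher and 32 to 37 lower. NDUFA10 lost its call without any 1 of 6 libraries and NDUFB3 without any 1 of 6, NDUFA11 without fast batch 1 replicate 2 and, separately, without parental batch 1 replicate 3, and NDUFA9 without parental batch 2 replicate 2. The count of members whose effect differed between batches ranged from 0 to 1, reaching 1 when fast batch 2 replicate 2 was left out, and likewise parental batch 1 replicate 3. Median log2 fold changes ranged, leaving out 1 library, from -0.083 to -0.018 in complex I and from -0.00299 to 0.22 in complex IV, where low isoforms enter or leave the test. The complex IV median was 0.071 when genes under 1 CPM were dropped before the fit, 0.094 for members from 10 CPM and -0.017 without NDUFA4 and NDUFA4L2; that of complex V was 0.11 for members from 10 CPM. Centring on neighbouring genes gave 21 members higher and medians of 0.20 in complex II, 0.0094 in complex IV and -0.015 in complex V; by construction it removes what a gene shares with its neighbours. It also reversed the sign of UQCRH (0.025), COX4I1 (-0.055), SDHB (-0.022), SDHC (0.13), NDUFS1 (-0.0067), NDUFS3 (0.023), NDUFS8 (0.0596), CYC1 (-0.043), UQCRFS1 (-0.086), ATP5A1 (0.44), ATP5C1 (-0.034), COX6A1 (0.0094), COX8A (0.095), NDUFA4 (-0.0497) and ATP5G2 (-0.21). ATP5G2 was at -0.0098 when genes under 1 CPM were dropped. Uncalled values that crossed 0 when 1 library was left out were ATP5G2 (-0.013 to 0.042), COX6A1 (-0.041 to 0.0044), COX6B2 (-0.079 to 0.42) and NDUFS7 (-0.047 to 0.0074). With 10 and 40 neighbours on each side the Pearson r was 0.805 and 0.803. The SE of the log2 fold change was widest for the isoforms under 1 CPM, such as 0.53 for COX6B2. It also differed among subunits at higher levels, at 0.050 for NDUFA3 and 0.025 for ATP5A1.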

Other observations

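Of the 6 rows that overlap another member, 5 had a partner that was called, and these had its direction. The UQCR11 overlapping row was called higher (0.082, edgeR adjusted p = 0.0103) while UQCR11 itself was not (0.038, adjusted p = 0.415), and that call was lost with summed libraries (adjusted p = 0.136). The readthrough NDUFC2-KCTD14 had 50.7 to 56.7 CPM in fast libraries and 72.3 to 87.2 CPM in parental libraries (log2 fold change -0.58 ± 0.03 SE), beside -0.54 for NDUFC2. The second NDUFB8 row had 91.1 to 103 CPM in fast libraries and 72.4 to 83.3 CPM in parental libraries (0.34 ± 0.035 SE), beside 0.35 for the NDUFB8 subunit row. The second NDUFA7 row had a log2 fold change of -0.40 and the second SDHD row one of 0.22, beside -0.29 and 0.27 in the rows used for the subunits. These rows can share reads with their partners and are not independent of them. ATP5S and ATP5SL, which carry the prefix without being subunits of the ATP synthase, had log2 fold changes of -0.07 ± 0.068 SE and 0.0097 ± 0.035 SE and were not called.

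A pair of further complex I subunits was picked after their values were seen. NDUFB4 had 91, 94 and 98.9 CPM in fast libraries, against 64.5, 67.6 and 71.1 CPM in parental libraries (lowest, median and highest; log2 fold change 0.48 ± 0.029 SE, edgeR adjusted p = 2.44e-16). NDUFS5, which led complex I per length in parental cells, had 76.2, 80.3 and 85.9 CPM in fast libraries, against 103, 113 and 124 CPM in parental libraries (log2 fold change -0.49 ± 0.028 SE, edgeR adjusted p = 5.79e-17). The ranges did not overlap in either gene, and the 2 accessory subunits moved in opposite directions.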
